A study of Mus musculus with 40 samples.

Results

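The 34 genes described here are transcripts typical of blood and lymphatic vessel endothelium, followed in mouse kidney across 8 dose groups of TCDD. They were taken by name from the 55359 Ensembl gene identifiers counted in each library, and all 34 had enough counts to enter the test across genes. They were selected on their levels across the dose groups of these same libraries: most are higher with dose and Btnl9 is lower. Their differences between dose groups are therefore a description. No p-value of a single one of them against vehicle is given, and where they are counted or named as called in the fit over all genes, nothing is read from it, since the same values chose them.

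Each of the 40 libraries came from about 100 mg of frozen right kidney of a male C57BL/6 mouse (C57BL/6NCrl in the series text); the labels name no engineered allele. Gavages of sesame oil, alone in the vehicle group or with 0.03, 0.1, 0.3, 1, 3, 10 or 30 µg/kg TCDD, were given every 4 days for 28 days, 7 in all, from an age of 30 days, and kidneys were collected at 58 days. Each group holds 5 mice, numbered here as replicates in sample order, since the labels give no replicate numbers. TCDD (2,3,7,8-tetrachlorodibenzo-p-dioxin) is cleared slowly from the body and activates AhR (the aryl hydrocarbon receptor), which switches on Cyp1a1. Whole tissue was sequenced, so a lower level from fewer cells of a type and one from less RNA per cell cannot be told apart, and the endothelial origin of a transcript was not measured.

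Endothelial cells line every vessel of the kidney. In the glomerulus and around the tubules they are perforated by fenestrae, and their survival and permeability depend on VEGF released by podocytes and tubules and read by receptors on the endothelium. Angiopoietin signalling through Tek, junctions built on VE-cadherin (Cdh5), and transcription factors of the ETS and SoxF families keep these cells in their mature state. Several of the genes are also transcribed by other kidney cells, among them Igfbp3, Igfbp5, Cd34 and Tspan7, and Lyve1 is also found in some macrophages.

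Gene counts summed to 15278423 to 25575317 per library. Cyp1a1, the check of exposure, had 2.37 ± 1.25 CPM in vehicle (mean ± SD, n = 5; CPM is counts per 1000000 counts of the library, after TMM scaling). The 30 µg/kg libraries averaged 2537 ± 436 CPM, and each exceeded every vehicle library. With edgeR's quasi-likelihood test over 17345 genes, 0 genes were called at 0.03 and 0.1 µg/kg (983 and 960 had an unadjusted p under 0.05, and DESeq2 called 7 and 0). A call is a Benjamini-Hochberg adjusted p under 0.05. From 0.3 to 30 µg/kg the calls numbered 1, 89, 189, 836 and 2766. Some libraries stood apart. Summed adrenal cortex transcripts (4 genes) were 425.6 CPM in replicate 1 at 0.03 µg/kg, 464.5 CPM in replicate 4 at 1 µg/kg and 27.7 CPM in replicate 2 at 3 µg/kg, against 3.80 to 5.47 CPM in vehicle. Summed adipocyte transcripts (5 genes) were 244.3, 249.6 and 340.3 CPM in replicates 2, 4 and 5 at 30 µg/kg, against 53.6 to 166.1 CPM in vehicle. Vehicle replicates 1 and 2 had the lowest summed mural cell transcripts of their group, 180.9 and 196.2 CPM. Their summed thick ascending limb transcripts were also the lowest, 1124 and 1288 CPM against 2021 to 3084 CPM in the other vehicle libraries. Summed distal convoluted tubule transcripts were the highest in these 2 libraries, 1687 and 1971 CPM against 1253 to 1410 CPM.

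Among the 34 endothelial genes, none was called at 0.03, 0.1, 0.3 or 1 µg/kg by edgeR or by DESeq2, with 7, 5, 2 and 6 at an unadjusted p under 0.05. Of all genes tested, 0.00577% were called at 0.3 µg/kg, all higher, and 0.513% at 1 µg/kg, 0.507% higher and 0.00577% lower. In either direction 1.09% were called at 3 µg/kg, 4.82% at 10 µg/kg, 15.9% at 30 µg/kg and 19.8% along the dose rank. Of the 34 genes, at 3 µg/kg 5 were called higher (1.03% of all genes tested were) and 1 lower (0.0634%). The numbers were 15 higher (3.82%) and 2 lower (0.997%) at 10 µg/kg, and again 15 higher (8.39%) and 2 lower (7.55%) at 30 µg/kg. Along the dose rank, from 0 for vehicle to 7 for the highest dose, 19 had a rising slope (11.0%) and 2 a falling one (8.84%). With library-size scaling in place of TMM, the split of all genes called higher and lower went from 663 and 173 to 723 and 95 at 10 µg/kg, from 1456 and 1310 to 1774 and 943 at 30 µg/kg, and from 1906 and 1533 to 2373 and 959 along the dose rank. Since dose differences chose these genes, nothing is read from these shares. Without vehicle replicates 1 and 2 the genes called higher numbered 1, 10 and 15 at 3, 10 and 30 µg/kg, and without the 3 libraries rich in fat transcripts, which leaves 2 at that dose, 12 at 30 µg/kg. The 13 genes called higher at 10 and 30 µg/kg and along the dose rank were Emcn, Flt1, Flt4, Pecam1, Cdh5, Tek, Tie1, Robo4, Sox17, Ptprb, Vwf, S1pr1 and Mmrn2. A further 12, among them Eng, Cd34, Sox7, Sox18 and Tspan7, were called in none of these 3 comparisons. All 5 libraries lay above all vehicle libraries for 13 of the 34 genes at 10 µg/kg (4.32% of all genes tested) and for 11 at 30 µg/kg (3.59%). Btnl9 and Igfbp5 lay wholly below vehicle at 10 µg/kg (1.82% of all genes tested did), and Btnl9 alone of the 34 at 30 µg/kg (2.83%). The median log2 fold change over the 34 genes was 0.15, 0.39 and 0.42 at 3, 10 and 30 µg/kg, beside 0.00, -0.01 and 0.01 over all genes. Their summed level was 2117 ± 160 CPM in vehicle, 2135 ± 79.4 CPM at 10 µg/kg and 2207 ± 235 CPM at 30 µg/kg (mean ± SD). Igfbp5, the most abundant of them and lower at both doses, is part of that sum.

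**Figure D1:**
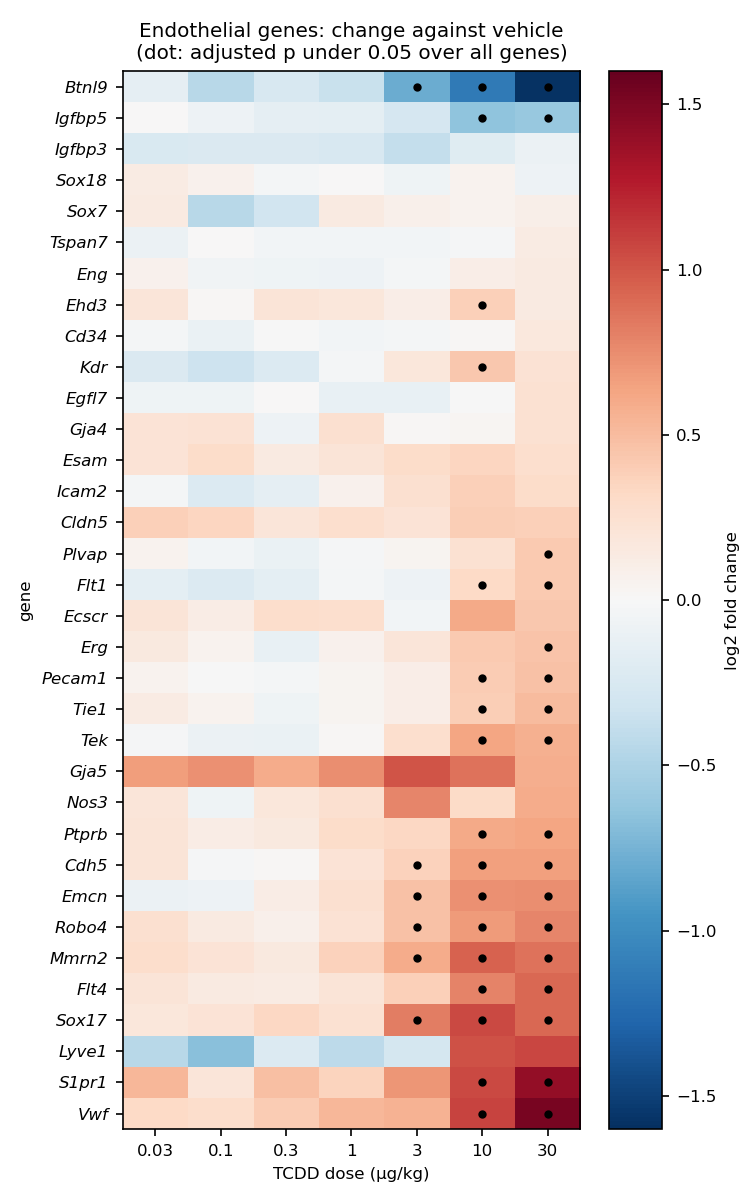
Log2 fold change of each of the 34 genes (rows) against vehicle at the 7 TCDD doses (columns, µg/kg); a dot marks an adjusted p under 0.05 in the fit over all genes. Dots begin at 3 µg/kg, and Btnl9 in the top row is the darkest blue, reaching -1.58 at 30 µg/kg.

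Endomucin (Emcn), a sialomucin on the surface of capillary and venous endothelium, had a graded course. Its vehicle libraries read 62.2, 53.5, 63.6, 77.3 and 63.5 CPM. The 3 µg/kg libraries read 89.9, 87.3, 87.8, 84.3 and 93.5 CPM, and at 30 µg/kg 113.1, 109.5, 97.9, 112.0 and 102.0 CPM. The lowest library at 3 µg/kg already lay above the highest vehicle library, and the share of all genes separated in this way at 3 µg/kg was not counted. The means at 0.03 and 0.1 µg/kg, 59.8 and 60.5 CPM, were below the vehicle mean of 64.0 CPM. The log2 fold change was 0.25 ± 0.08 (SE) at 1 µg/kg, 0.47 ± 0.08 at 3 µg/kg, 0.73 ± 0.08 at 10 µg/kg and 0.74 ± 0.08 at 30 µg/kg, so the mean differed little between the top 2 doses (106.3 and 106.9 CPM).

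Btnl9, a butyrophilin-like membrane protein whose transcript is enriched in capillary endothelium of several organs, went the other way. Vehicle libraries held 13.5, 17.0, 15.6, 12.7 and 11.5 CPM. The values were 7.17, 9.17, 8.87, 6.90 and 8.60 CPM at 3 µg/kg, 7.14, 8.45, 5.38, 4.16 and 7.12 CPM at 10 µg/kg, and 5.85, 5.71, 4.61, 2.81 and 4.58 CPM at 30 µg/kg. Every library of the top 3 doses lay below every vehicle library. Of all genes tested, 1.82% did so at 10 µg/kg and 2.83% at 30 µg/kg, and the share at 3 µg/kg was not counted. Below 3 µg/kg the groups overlapped vehicle, with means of 12.8, 10.3, 11.7 and 11.0 CPM at 0.03, 0.1, 0.3 and 1 µg/kg. The log2 fold change was -0.79 ± 0.17, -1.13 ± 0.17 and -1.58 ± 0.17 at 3, 10 and 30 µg/kg, and the 30 µg/kg mean was 0.335 times the vehicle mean. At 3 µg/kg the call was lost without vehicle replicates 1 and 2. Of 7 other butyrophilin family genes, only Btnl10 had enough counts to be tested, with 0.610 ± 0.387 CPM in the vehicle group against 0.376 ± 0.417 CPM in the highest dose group (edgeR adjusted p = 0.567).

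**Figure D2:**
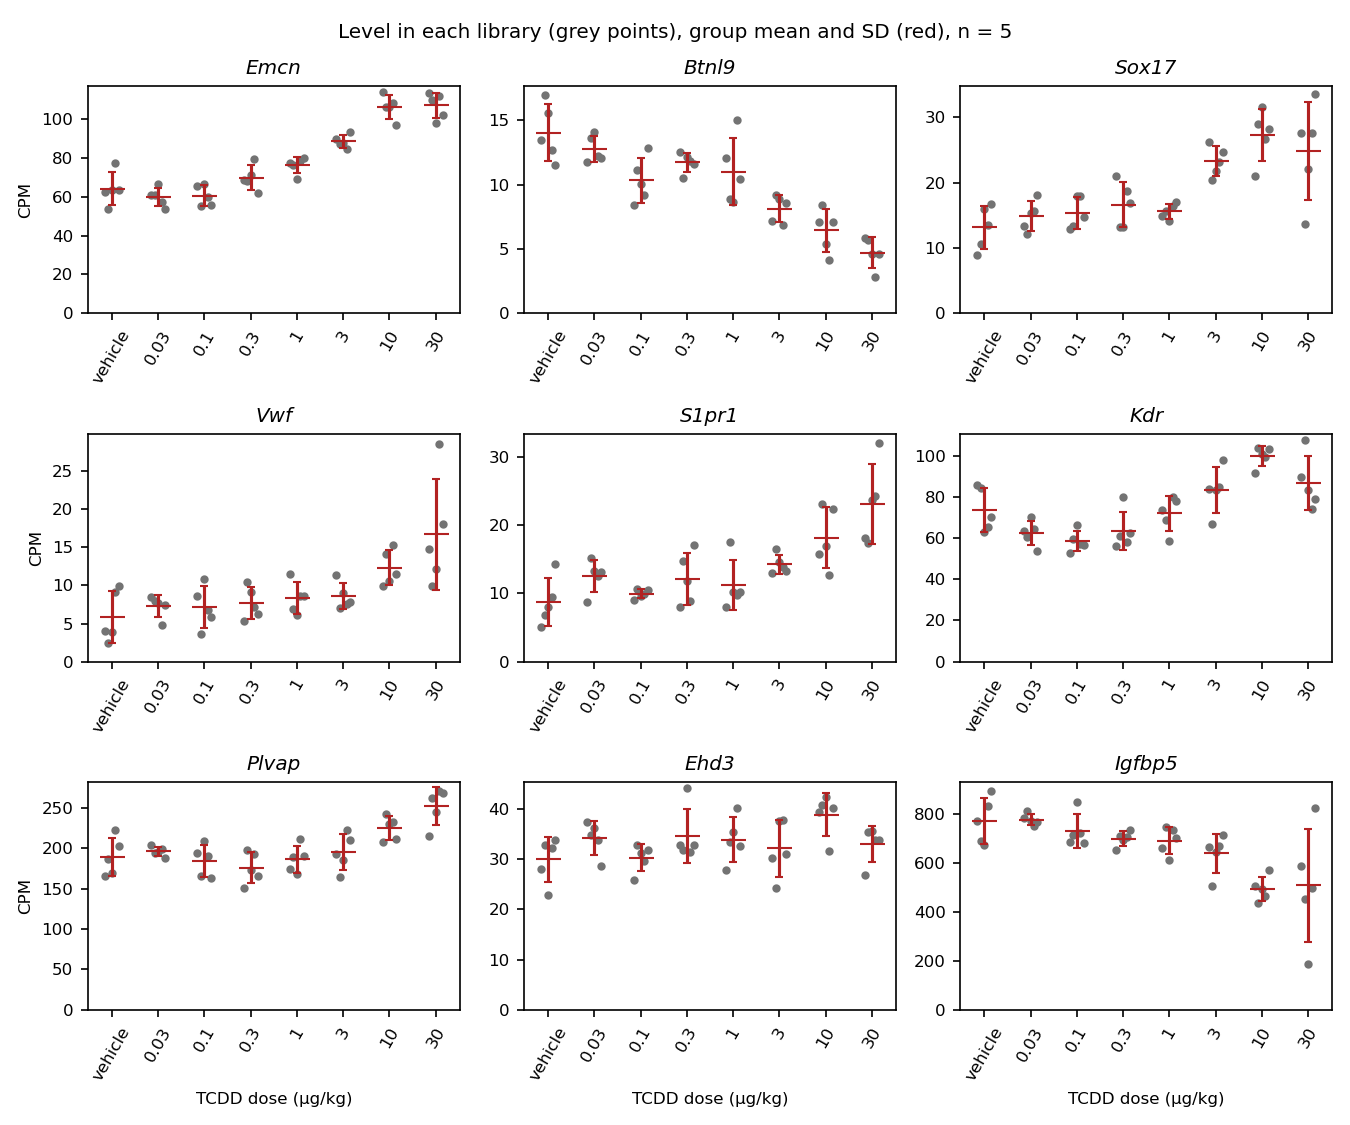
CPM of 9 genes in every library (grey points) by TCDD dose (µg/kg), with the group mean and SD in red (n = 5 per group). The Emcn means climb from 0.3 to 10 µg/kg and are level at 30 µg/kg, Btnl9 declines, Kdr peaks at 10 µg/kg, and the 30 µg/kg points of Igfbp5 are spread from 187 to 828 CPM.

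Of the receptors for VEGF and angiopoietin, with the phosphatase Ptprb (VE-PTP) that acts on Tek and on VE-cadherin, all 6 were called higher at 10 µg/kg. At 30 µg/kg 5 of the 6 were. Of all genes tested, 3.82% were called higher at 10 µg/kg and 8.39% at 30 µg/kg. Nothing is read from these counts, since dose differences chose the genes. Kdr, the main signalling receptor for VEGF-A, was not called at 30 µg/kg in the main fit. It measured 85.8, 84.7, 62.9, 65.4 and 70.3 CPM in vehicle, then 91.7, 104.0, 101.1, 99.4 and 103.2 CPM at 10 µg/kg and 90.0, 107.9, 83.7, 74.4 and 79.1 CPM at 30 µg/kg. All 10 µg/kg libraries exceeded all vehicle libraries (4.32% of all genes tested did), whereas at 30 µg/kg only replicates 1 and 2 did. The Kdr log2 fold change was 0.44 ± 0.10 at 10 µg/kg and 0.24 ± 0.10 at 30 µg/kg, and the difference between these doses was not tested. Its group means at 0.03, 0.1 and 0.3 µg/kg (62.7, 58.6 and 63.6 CPM) lay under that of vehicle (73.8 CPM). Kdr was called at 30 µg/kg (log2 fold change 0.39) only in the fit without vehicle replicates 1 and 2, which were the 2 highest Kdr values of their group.

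Flt1, which binds VEGF-A tightly and also circulates as a soluble decoy, had 67.5, 58.3, 68.5, 57.1 and 56.1 CPM in vehicle and 73.8, 92.5, 84.5, 79.5 and 82.1 CPM at 30 µg/kg. The 2 groups did not overlap, with a log2 fold change of 0.42 ± 0.09. Flt4, the receptor for VEGF-C found on lymphatic and on fenestrated endothelium, had 11.4, 13.3, 10.8, 12.2 and 10.7 CPM in vehicle against 19.0, 26.0, 23.2, 20.5 and 21.7 CPM at 30 µg/kg. This was the largest difference among the receptors, at a log2 fold change of 0.92 ± 0.14. The angiopoietin receptor Tek had 40.0 ± 1.50 CPM in vehicle, with 61.9 ± 3.47 CPM at 10 µg/kg and 59.5 ± 9.91 CPM at 30 µg/kg. Its partner Tie1, which modulates Tek signalling, went from 40.8 ± 2.83 to 53.6 ± 3.37 and 57.9 ± 2.96 CPM. Ptprb had 55.7 ± 7.04, 84.4 ± 12.9 and 86.2 ± 9.84 CPM in these groups. For Tek, Tie1 and Ptprb no library of either top dose fell within the vehicle range. Of all genes tested, 4.32% at 10 µg/kg and 3.59% at 30 µg/kg had all 5 libraries above all vehicle libraries.

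Promoter sequence is shown for 4 of the genes because they bracket the responses: Emcn and Robo4 were higher from 3 µg/kg, Kdr was highest at 10 µg/kg, and Btnl9 was lower. RefSeq promoter windows (mouse build GRCm38.p6) were matched for 19 of the 34 genes. The 250 bases before the annotated start are printed 5′ to 3′ on the gene's strand. Capitals mark GCGTG, the core of the AhR binding element, and CAGGAAG, the core preferred by the ETS factors ERG and FLI; both strands were searched, so the reverse complements CACGC and CTTCCTG count too, and the motifs do not overlap each other where printed. The windows are chr3:137340828-137341077 (plus strand) for Emcn, chr11:49187090-49187339 (minus strand) for Btnl9, chr5:75978456-75978705 (minus strand) for Kdr and chr9:37401722-37401971 (plus strand) for Robo4.
Emcn: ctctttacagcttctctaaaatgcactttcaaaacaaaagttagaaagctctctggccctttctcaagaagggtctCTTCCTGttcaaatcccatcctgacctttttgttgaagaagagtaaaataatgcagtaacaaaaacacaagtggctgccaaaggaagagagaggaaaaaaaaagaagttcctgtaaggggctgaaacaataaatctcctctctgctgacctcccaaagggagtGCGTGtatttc
Btnl9: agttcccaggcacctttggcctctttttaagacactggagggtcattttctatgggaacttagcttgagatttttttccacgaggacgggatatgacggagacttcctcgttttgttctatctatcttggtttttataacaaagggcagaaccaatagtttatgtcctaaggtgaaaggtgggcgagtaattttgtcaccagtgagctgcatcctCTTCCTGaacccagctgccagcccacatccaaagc
Kdr: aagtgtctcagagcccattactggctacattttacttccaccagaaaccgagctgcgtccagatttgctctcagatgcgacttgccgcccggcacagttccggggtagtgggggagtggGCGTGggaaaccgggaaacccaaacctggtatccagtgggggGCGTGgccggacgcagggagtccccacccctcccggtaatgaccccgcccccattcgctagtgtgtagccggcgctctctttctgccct
Robo4: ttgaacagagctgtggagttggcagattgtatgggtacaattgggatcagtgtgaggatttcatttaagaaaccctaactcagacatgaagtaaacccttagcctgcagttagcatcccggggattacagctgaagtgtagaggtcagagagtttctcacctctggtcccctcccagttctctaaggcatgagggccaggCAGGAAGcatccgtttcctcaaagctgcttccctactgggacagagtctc

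The Emcn window holds both motifs, with GCGTG close to the start. Kdr holds GCGTG at 2 places, and Btnl9 and Robo4 hold the ERG and FLI core alone. Of the 19 matched genes, 6 had GCGTG (31.6%; Emcn, Erg, Flt1, Igfbp3, Kdr and Tspan7), beside 30.9% of 27025 genes with windows of the same length. CAGGAAG was in 6 (31.6%; Btnl9, Cd34, Egfl7, Emcn, Erg and Robo4), beside 12.1% of those genes. A match of letters is a description of the sequence. Binding was not measured, the shares were not compared by a test, and the part of either motif in the levels was not tested.

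Of 8 junction and surface genes, 3 were called higher at 10 and at 30 µg/kg: Emcn, Pecam1 and Cdh5. Of all genes tested, 3.82% were called higher at 10 µg/kg and 8.39% at 30 µg/kg, and nothing is read from the count. Pecam1 (CD31), an adhesion molecule of endothelial cell contacts, read 50.8, 53.8, 53.6, 64.1 and 64.3 CPM in vehicle. It read 76.8, 78.3, 75.5, 74.7 and 73.9 CPM at 10 µg/kg and 77.0, 83.0, 68.3, 91.2 and 75.6 CPM at 30 µg/kg. Neither dose overlapped vehicle (4.32% of all genes tested lay wholly above vehicle at 10 µg/kg, and 3.59% at 30 µg/kg). Its call at 30 µg/kg (log2 fold change 0.46) was lost without the 3 fat-rich libraries, where the log2 fold change was 0.34. Cdh5, VE-cadherin, the adhesive core of endothelial adherens junctions, had 33.3, 30.6, 30.5, 40.5 and 38.5 CPM in vehicle and 52.3, 53.7, 47.3, 55.2 and 63.5 CPM at 30 µg/kg, again without overlap, and its log2 fold change was 0.65 ± 0.10. The other 5 were not called at either dose. The tight junction protein Cldn5 had 8.43 ± 2.76 CPM in vehicle against 10.9 ± 3.79 CPM at 30 µg/kg, and the junctional adhesion molecule Esam 29.5 ± 8.61 and 35.6 ± 5.80 CPM. Vehicle replicate 1 was the lowest for both (3.75 CPM for Cldn5 and 18.8 CPM for Esam), and without vehicle replicates 1 and 2 the log2 fold change of Esam was 0.02 rather than 0.27. Icam2, a ligand for leukocyte integrins, lay above vehicle in all 5 libraries at 10 µg/kg (10.3 to 12.0 against 7.49 to 9.74 CPM) and in 4 of 5 at 30 µg/kg. Cd34 (25.5 ± 3.66 and 28.5 ± 5.08 CPM), a sialomucin of small-vessel endothelium and stroma, and Tspan7 (32.4 ± 5.65 and 35.6 ± 5.91 CPM), a tetraspanin, overlapped vehicle at 30 µg/kg.

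The 4 transcription factors were 3 of the SoxF family and Erg. Sox17, which acts in arterial endothelium, had 8.93, 10.6, 15.9, 13.5 and 16.7 CPM in vehicle, then 26.3, 20.4, 21.8, 23.1 and 24.6 CPM at 3 µg/kg and 20.9, 28.9, 31.6, 26.7 and 28.2 CPM at 10 µg/kg. It had 27.6, 13.6, 22.0, 27.6 and 33.5 CPM at 30 µg/kg. The 3 and 10 µg/kg libraries cleared the vehicle range, and at 30 µg/kg replicate 2 fell back into it. At 10 µg/kg 4.32% of all genes tested lay wholly above vehicle, and at 3 µg/kg that share was not counted. Log2 fold changes of Sox17 were 0.82 ± 0.17, 1.05 ± 0.17 and 0.92 ± 0.17 at 3, 10 and 30 µg/kg. Exons of Sox17 overlap those of Gm37587 on the opposite strand over 16.8% of their length. Where both genes are annotated, counts that ignore strand set reads there aside as ambiguous, and ambiguous reads were left out. The other SoxF factors, Sox18 (18.6 ± 1.92 and 17.7 ± 4.34 CPM in vehicle and at 30 µg/kg), known for its part in lymphatic development, and Sox7 (3.84 ± 1.73 and 4.06 ± 1.50 CPM), were not called at any dose. Erg, an ETS factor that maintains endothelial identity, had 7.76 to 11.3 CPM in vehicle, then 11.7 to 12.4 CPM at 10 µg/kg and 7.05 to 16.1 CPM at 30 µg/kg. Its 10 µg/kg libraries were all above vehicle, yet it was called only at 30 µg/kg (log2 fold change 0.46), and that call was lost under 12 of 20 alternatives, including 7 of the 10 that left out a single library.

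The signalling and matrix genes held the second highest fold change. S1pr1, the receptor through which sphingosine-1-phosphate tightens the endothelial barrier, measured 5.01, 6.89, 8.03, 9.40 and 14.3 CPM in vehicle. At 10 µg/kg it measured 15.8, 23.1, 17.0, 12.6 and 22.3 CPM, and at 30 µg/kg 18.2, 17.4, 23.7, 24.3 and 32.0 CPM. All libraries at 30 µg/kg exceeded vehicle, while 1 at 10 µg/kg (replicate 4) lay under the highest vehicle library. Log2 fold changes were 1.06 ± 0.22 and 1.41 ± 0.22. Robo4, an endothelial member of the roundabout receptor family, had 18.9, 17.4, 24.3, 30.9 and 25.3 CPM in vehicle. At 30 µg/kg it had 34.8, 35.6, 38.1, 46.7 and 45.1 CPM, with no overlap (3.59% of all genes tested lay wholly above vehicle at this dose). Mmrn2, an extracellular matrix glycoprotein deposited by endothelium, had 13.7, 17.2, 21.8, 24.1 and 23.5 CPM in vehicle against 38.5, 35.3, 40.8, 39.4 and 38.9 CPM at 10 µg/kg and 30.8, 32.3, 35.4, 38.2 and 46.4 CPM at 30 µg/kg. In both genes vehicle replicates 1 and 2 were the 2 lowest libraries of their group.

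The remaining 4 of this group were not called at any single dose. Eng (endoglin), a TGF-beta co-receptor, had 161.3 ± 17.4 CPM in vehicle against 178 ± 19.0 CPM at 30 µg/kg. Egfl7, a secreted vascular factor that hosts miR-126, had 29.1 ± 1.89 and 34.5 ± 5.23 CPM, and 11.2% of its exon length is shared with other genes. Ecscr, an endothelial surface regulator, had 3.78 ± 1.15 and 5.09 ± 1.57 CPM. Nos3, endothelial nitric oxide synthase, had 3.45 ± 1.60 CPM in vehicle, 5.89 ± 1.10 CPM at 3 µg/kg, 4.25 ± 1.01 CPM at 10 µg/kg and 5.17 ± 1.62 CPM at 30 µg/kg, and 32.3% of its exon length overlaps Atg9b and Gm15587 on the opposite strand. Nos3 was called along the dose rank alone.

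Plvap builds the diaphragms of endothelial fenestrae outside the mature glomerulus, and Ehd3 is an endocytic trafficking protein known as a marker of glomerular endothelium. Plvap read 165.5, 186.3, 169.7, 222.6 and 202.7 CPM in vehicle, then 207.9, 242.2, 230.8, 232.5 and 212.1 CPM at 10 µg/kg and 215.2, 262.3, 244.6, 270.7 and 268.8 CPM at 30 µg/kg. At 30 µg/kg replicate 1 was the only library within the vehicle range. The log2 fold change of 0.41 ± 0.08 was 0.28 and not called without the 3 fat-rich libraries. Ehd3 had 28.1, 32.8, 22.8, 32.2 and 33.8 CPM in vehicle, then 39.4, 40.7, 42.4, 31.6 and 40.2 CPM at 10 µg/kg and 26.8, 35.3, 35.5, 33.8 and 33.8 CPM at 30 µg/kg. It was called at 10 µg/kg only (log2 fold change 0.38 ± 0.11), and at 30 µg/kg the groups overlapped (0.14 ± 0.11). The difference between the doses was not tested.

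Von Willebrand factor (Vwf), a clotting protein stored by endothelium of larger vessels and by platelets, had the highest log2 fold change of the 34 genes, 1.52 ± 0.31 at 30 µg/kg. Its vehicle libraries held 4.03, 2.38, 3.84, 9.20 and 9.97 CPM, and its 30 µg/kg libraries 14.8, 9.90, 12.1, 28.6 and 18.1 CPM. Replicate 2 at 30 µg/kg lay just under the highest vehicle library, and replicate 4, at 28.6 CPM, was far above the others. The call was lost in the fit to the vehicle and 30 µg/kg libraries alone. Of 5 platelet and megakaryocyte genes, 4 were tested and none was called at 30 µg/kg by edgeR, with 1 at an unadjusted p under 0.05 and 0 called by DESeq2. At 10 µg/kg 1 of the 4 was called lower by edgeR (0.997% of all genes tested were). The part of platelets in the Vwf level was not tested. The gap junction genes of arterial endothelium, Gja4 (3.70 ± 1.66 and 4.36 ± 1.74 CPM in vehicle and at 30 µg/kg) and Gja5 (2.79 ± 1.41 and 4.14 ± 2.71 CPM), overlapped vehicle. Gja5 had means of 4.48, 4.64, 4.23 and 4.67 CPM from 0.03 to 1 µg/kg, and at 30 µg/kg replicates 2 and 3 were at 1.13 and 1.29 CPM while the other 3 were between 5.62 and 6.79 CPM.

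Igfbp5 and Igfbp3 are secreted proteins that bind insulin-like growth factors, and both also come from stromal cells. Igfbp5 held 774.3, 689.8, 676.6, 834.3 and 895.3 CPM in vehicle, then 507.8, 436.9, 493.0, 464.5 and 571.1 CPM at 10 µg/kg and 587.3, 452.1, 187.0, 497.1 and 827.9 CPM at 30 µg/kg. Every 10 µg/kg library was below vehicle (1.82% of all genes tested were), and at 30 µg/kg replicate 5 was within the vehicle range. The log2 fold change was -0.65 ± 0.18 and -0.60 ± 0.18. At 30 µg/kg the call was lost with library-size scaling, in the fit to 2 groups alone and without vehicle replicate 5. Igfbp3 was between 203.9 and 311.0 CPM in vehicle and between 177.2 and 339.1 CPM at 30 µg/kg, with replicates 2 and 3 at 309.6 and 339.1 CPM and the other 3 between 177.2 and 196.4 CPM. Lyve1, the hyaluronan receptor of lymphatic endothelium, was the scarcest per length: it had 0.711 ± 0.432 CPM in vehicle, 1.41 ± 0.775 CPM at 10 µg/kg and 1.48 ± 0.530 CPM at 30 µg/kg. It was called along the dose rank and at no single dose.

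Levels of different genes are compared per kilobase of exon sequence (CPM per kb). In vehicle the order began with Igfbp5 at 129 ± 15.6, Plvap at 95.3 ± 11.9 and Igfbp3 at 82.7 ± 14.5 CPM per kb, followed by Eng at 39.8 ± 4.29 and Emcn at 11.8 ± 1.58. Plvap and Igfbp3 differed by less than the SD of Igfbp3. Esam, Pecam1, Tek, Tie1, Cdh5, Kdr and Egfl7 stood between 8.12 and 10.3 CPM per kb, neighbours within 1 SD. Btnl9 was 26th of 34 in vehicle at 2.32 ± 0.365 CPM per kb, with 0.778 ± 0.202 CPM per kb at 30 µg/kg.

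**Figure D3:**
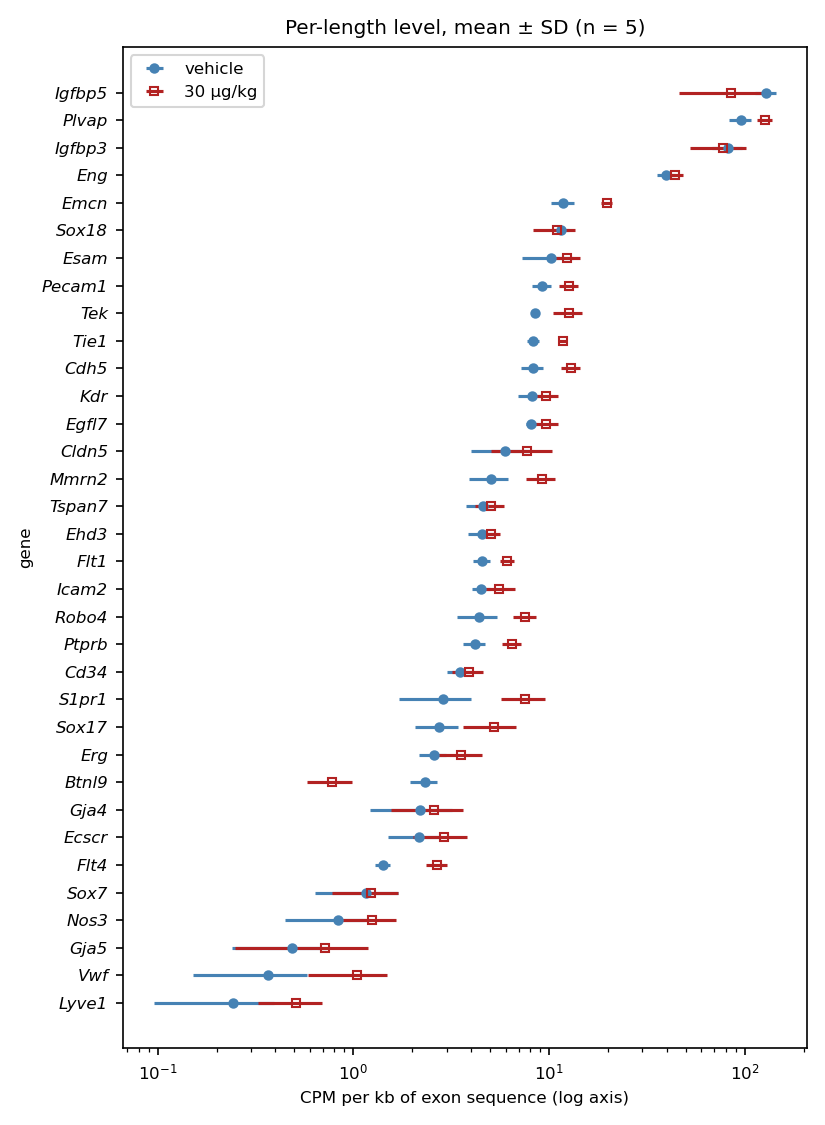
Level of each of the 34 genes in CPM per kb of exon sequence (log axis), as mean ± SD of 5 libraries in vehicle (filled circles) and at 30 µg/kg (open squares). Igfbp5, Plvap and Igfbp3 are the most abundant and Lyve1 the least; Btnl9 is the gene whose square lies farthest to the left of its circle.

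Endothelial genes outside the 34 were examined in 8 lists holding 94 genes, of which 92 were tested. They were tested in the same fit over all genes. These lists, too, were chosen with earlier results of these data known, so their counts are a description and no independent support for the 34 genes. Most genes named from them are those called at 30 µg/kg with the largest fold change. At 30 µg/kg, 33 were called higher and 2 lower, against 8.39% and 7.55% of all genes tested. At 10 µg/kg the counts were 27 and 0 (DESeq2 called 30 in either direction, and 1 of the 46 genes with an unadjusted p under 0.05 was lower), against 3.82% and 0.997%. At 3 µg/kg 5 were called, all higher (1.03% of all genes tested were): Adgrl4, Tm4sf1, Jag2, Edn1 and Unc5b, named after their values were seen. The single call at 1 µg/kg was Vcam1. The median log2 fold change over these genes was 0.35 at 10 µg/kg and 0.28 at 30 µg/kg. The count called higher at 30 µg/kg was 18 without the 3 fat-rich libraries and 29 without vehicle replicates 1 and 2, and that at 10 µg/kg was 18 without those vehicle libraries.

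By list, 12 of 24 other pan-endothelial genes were higher at 30 µg/kg, led by Grrp1, a little studied endothelial transcript (3.30 ± 0.910 CPM in vehicle, 9.51 ± 3.17 CPM at 30 µg/kg, log2 fold change 1.52, edgeR adjusted p = 3.48e-06, higher in 5 of 5 libraries), and Nostrin, which traffics endothelial nitric oxide synthase (log2 fold change 0.91, edgeR adjusted p = 0.00791). Nostrin lost its call without the fat-rich libraries and with counts of a single strand column. All 6 tested genes of activated endothelium were higher. They included Sele, E-selectin (0.244 ± 0.200 and 1.50 ± 1.57 CPM, 2.56 on the log2 scale, edgeR adjusted p = 0.0348). Sele lay above the vehicle range in 3 of 5 libraries and its call was lost without any 1 of 5 single libraries, among them replicate 3 at 30 µg/kg, without which its log2 fold change was 1.73. In the Notch list 3 of 12 were higher, led by the ligand Jag2 (9.23 ± 1.80 and 18.8 ± 3.68 CPM, 1.03, edgeR adjusted p = 2.15e-06) and the endothelial receptor Notch4 (0.74, edgeR adjusted p = 3.77e-05), while the arterial ligand Dll4 had a log2 fold change of -0.02.

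Of 15 other endothelial transcription factors 6 were higher at 30 µg/kg, led by Fli1, the ETS relative of Erg (7.14 ± 1.45 and 12.1 ± 1.71 CPM, 0.76 on the log2 scale, edgeR adjusted p = 0.00093), and Klf2, the flow-induced factor (21.0 ± 2.45 and 34.0 ± 6.80 CPM, 0.70, edgeR adjusted p = 0.000109). Fli1 lost its call without the fat-rich libraries, at a log2 fold change of 0.53. Among 13 growth factors and co-receptors, Vegfc, the ligand of Flt4 (3.62 ± 0.589 and 5.41 ± 0.594 CPM, 0.58, edgeR adjusted p = 0.0275), and Nrp2, a VEGF-C co-receptor (24.5 ± 3.03 and 36.1 ± 7.02 CPM, 0.56, edgeR adjusted p = 0.00063), were higher. Vegfc lost its call under 10 of 20 alternatives, and Nrp2 without the fat-rich libraries, at a log2 fold change of 0.33. Vegfa, the ligand of Kdr and Flt1, had a log2 fold change of -0.07. Aplnr, the apelin receptor, was lower (9.42 ± 1.22 and 5.32 ± 4.13 CPM, -0.82, edgeR adjusted p = 0.0489), a call lost under 14 of 20 alternatives, 8 of them leaving out a single library. Over all 10 fits without a single library its log2 fold change ran from -1.30 to -0.59. Arterial genes gave 3 of 8 higher, led by Mgp, an inhibitor of calcification (48.4 ± 4.41 and 81.9 ± 20.0 CPM, 0.76, edgeR adjusted p = 0.000169), and Unc5b, a netrin receptor (0.72, edgeR adjusted p = 0.000196). The Unc5b call was lost without the fat-rich libraries, where the log2 fold change was 0.42.

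Of 9 glomerular endothelial genes 0 were called higher at 30 µg/kg by edgeR, and of 2 with an unadjusted p under 0.05 neither was higher (DESeq2 called 1 gene in either direction). Their summed level ran from 744.1 to 1288 CPM in vehicle and from 528.2 to 948.0 CPM at 30 µg/kg. Cyb561, an electron carrier of vesicle membranes, was lower (54.2 ± 9.76 and 43.3 ± 8.83 CPM, -0.32, edgeR adjusted p = 0.0188). That call was lost under 7 of 20 alternatives, 4 of them single libraries, at log2 fold changes of -0.22 to -0.28 for those 4. Of 5 lymphatic genes 1 was called by edgeR and 2 by DESeq2 at 30 µg/kg. By edgeR Mmrn1 was higher (1.31 ± 0.488 and 2.88 ± 1.14 CPM, 1.15, edgeR adjusted p = 0.00693). That call was lost without the fat-rich libraries, where the log2 fold change was 0.56, and without vehicle replicates 1 and 2, where it was 0.92. The Mmrn1 call was also lost with counts of a single strand column and in the fit to the vehicle and 30 µg/kg libraries alone. Prox1, the factor that sets lymphatic identity, had a log2 fold change of -0.21. Whether the lists differ from one another was not tested.

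**Figure D4:**
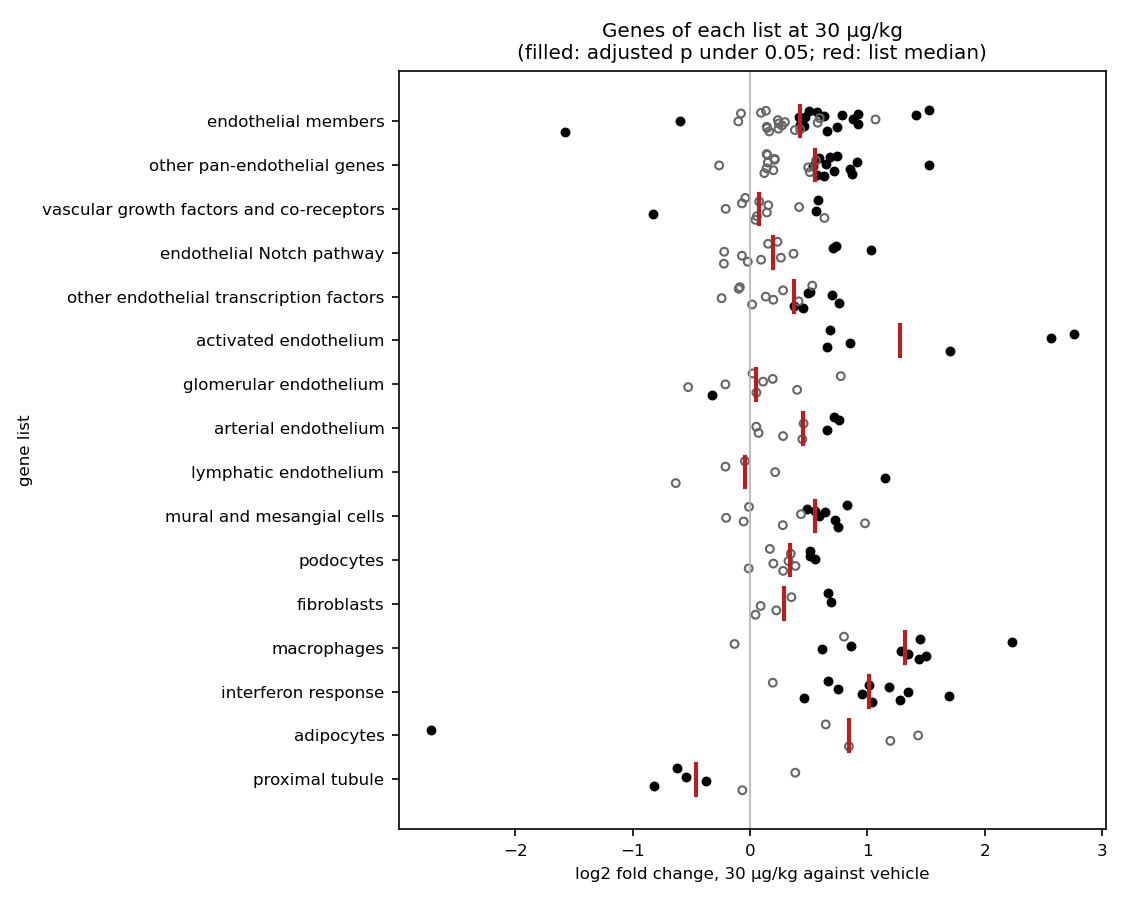
Log2 fold change at 30 µg/kg against vehicle (x axis) for each gene of 16 lists (rows); filled points had an adjusted p under 0.05 over all genes, open points did not, and red bars are list medians. The 34 endothelial genes (median 0.42) and the other pan-endothelial genes (median 0.55) lie mostly right of 0, glomerular endothelium is centred near 0 (median 0.05), and proximal tubule genes lie left (median -0.46).

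Transcripts of neighbouring cells moved as well, where 3.82% of all genes tested were called higher at 10 µg/kg and 8.39% at 30 µg/kg. Of 13 tested mural and mesangial genes, 7 were higher at 30 µg/kg, led by Rgs5, a pericyte regulator of G-protein signalling (27.6 ± 9.79 and 49.0 ± 13.5 CPM, 0.83 on the log2 scale, edgeR adjusted p = 0.00125), and Abcc9, a subunit of pericyte potassium channels (0.75, edgeR adjusted p = 0.00363). Both lost their calls without the fat-rich libraries and in the fit to the vehicle and 30 µg/kg libraries alone. Abcc9 also lost its call without vehicle replicates 1 and 2, where its log2 fold change was 0.40. The summed mural level (14 genes) ran from 180.9 to 284.8 CPM in vehicle, from 321 to 354.7 CPM at 10 µg/kg and from 225 to 378.3 CPM at 30 µg/kg. Podocyte genes, whose cells share the glomerulus with endothelium, were called higher in 5 of 10 cases at 10 µg/kg, and in 3 of the 10 at 30 µg/kg, and their sum was 468.3 to 584.9 CPM in vehicle against 603.2 to 749.1 CPM at 30 µg/kg. Macrophage genes were called higher in 8 of 10 cases at 30 µg/kg (C1qa, a complement subunit, 11.8 ± 1.88 and 33.2 ± 6.35 CPM, 1.50, edgeR adjusted p = 3.34e-09), with sums of 92.6 to 151.8 CPM in vehicle and 190.9 to 246.9 CPM at 30 µg/kg.

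Of 11 interferon response genes, 10 were higher at 10 and at 30 µg/kg (3.82% and 8.39% of all genes tested were). Interferon sums were 145.6 to 164.2 CPM in vehicle, then 322.4 to 423.1 CPM at 10 µg/kg and 164.0 to 343.0 CPM at 30 µg/kg. Proximal tubule genes were lower in 4 of 6 cases at 30 µg/kg (7.55% of all genes tested were). Slc22a6, an organic anion transporter, had 1107 ± 82.6 CPM in vehicle against 630 ± 233 CPM at the highest dose (log2 fold change -0.81, edgeR adjusted p = 4.63e-05). Their sum ran from 14534 to 17090 CPM in vehicle, from 13131 to 15035 CPM at 10 µg/kg and from 9232 to 15222 CPM at 30 µg/kg. No gene of these 5 lists was at 0 in all libraries of a group. Of 6 proliferation genes, 0 were called at 30 µg/kg by edgeR, with 0 at an unadjusted p under 0.05 and 0 called by DESeq2, with Mki67, a marker of cycling cells, at 3.74 ± 1.46 and 4.50 ± 2.41 CPM. The part of mural cells, podocytes, macrophages, fat and proximal tubule in the levels of the endothelial genes was not tested.

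Libraries of the same dose offer a look at Btnl9 that the choice of genes did not use. Each library's log2 CPM was taken as its deviation from the group mean, and Btnl9 was correlated with 6 endothelial genes over the 40 libraries, with permutation within groups and adjustment over the 6 pairs. The highest was Kdr, at Pearson's r = 0.357 (permutation p = 0.0340, adjusted p = 0.202) and Spearman's rho = 0.352 (p = 0.0392, adjusted p = 0.118), and r = 0.323 without the 2 libraries farthest from the median of Kdr. Plvap had r = -0.304 (permutation p = 0.0709, adjusted p = 0.202) and rho = -0.358 (p = 0.0390, adjusted p = 0.118), and r = -0.228 without its 2 farthest libraries. Flt1 had r = 0.311 (permutation p = 0.101) and rho = 0.247 (p = 0.171), and r = 0.174 without 2 libraries. With Emcn, r was -0.10 (permutation p = 0.548) and rho 0.00 (p = 0.995), and with Pecam1 and Ehd3 r was -0.09 (permutation p = 0.635) and 0.08 (permutation p = 0.654) and rho -0.14 (p = 0.416) and 0.07 (p = 0.670). None of the 6 pairs passed an adjusted p of 0.05, so an inverse relation of Btnl9 and Emcn within dose groups was not detectable among these libraries.

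**Figure D5:**
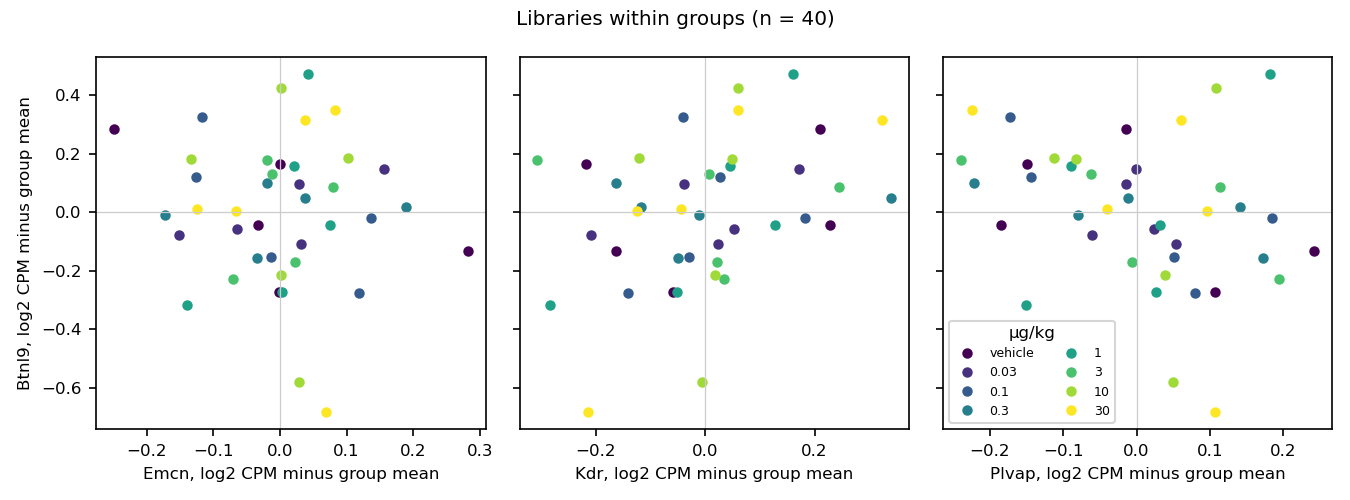
Btnl9 (y axis) against Emcn, Kdr and Plvap (x axes) as log2 CPM minus the group mean, one point per library coloured by dose (n = 40). The Emcn panel has little slope (r = -0.10), Kdr tilts upward (r = 0.357) and Plvap downward (r = -0.304), and none of the pairs passed after adjustment.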

How the data were processed

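Right kidneys of 40 mice (8 groups of 5) were profiled by paired-end RNA sequencing, with group and dose taken from the labels. For every library the authors deposited a table of gene read counts as STAR writes it. FastQC 0.11.7, Trimmomatic 0.39, STAR 2.7.3a and DESeq2, and the builds GRCm39 and mm10, are named in the submitters' processing notes without a role. The annotation used for counting is not given in the sources used here. The unstranded count column was used. The 2 strand columns held near-equal shares (48.96 to 49.65% in the fourth column), so strand does not separate overlapping genes. Reads over more than 1 gene fall among the ambiguous ones. Of 55359 identifiers 52083 were named from a reference list of gene symbols, and the unnamed ones held 0.663% of counts. Lines naming no gene (1.41 to 2.66% unmapped, 6.98 to 9.70% multimapping, 5.28 to 7.27% no feature, 5.40 to 5.98% ambiguous) were left out. The authors' table of transformed values was not used.

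In R 4.3.3 with edgeR 4.0.16, genes were filtered with filterByExpr by group (17345 kept), scaled with TMM (0.966 to 1.09) and fitted to all 40 libraries with robust quasi-likelihood, contrasting each dose with vehicle and, in a further fit, a slope over dose rank. Fold changes used a prior count of 0.125, log2 CPM a prior count of 2, and the biological coefficient of variation was 17.1%. P-values were adjusted by the Benjamini-Hochberg method across the 17345 genes. Correlations used 100000 permutations within groups, for which 1e-05 is the smallest p. Per-length levels divide CPM by the whole GENCODE M21 exon union, stretches shared with other genes included. They can therefore be too low for Sox17, Nos3 and Egfl7. The procedures were tested on simulated data. No 2 replicates agreed within sampling noise (chi-square per degree of freedom 6.90 to 78.8 over 80 pairs), so each library counted as 1 replicate. Reads carry no molecular identifiers.

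Members and lists were chosen with earlier results of these data known. All 34 members are named. Each other list names up to 2 genes called at 30 µg/kg in each direction with the largest fold change, or, where none was called, the most abundant gene; other names were added after their values were seen. Some genes that this rule names are not reported here. The lists not described above gave these counts at 30 µg/kg: lymphocytes 0 of 8, red blood cells 0 of 5, thick ascending limb 0 of 4 and adrenal cortex 0 of 2 in either direction. Fibroblasts had 2 of 6 higher, and distal convoluted tubule 1 of 2, principal cells 2 of 3, intercalated cells 1 of 4 and adipocytes 1 of 5 (Lep) lower. Over all genes tested the shares at 30 µg/kg were 8.39% higher and 7.55% lower. Alternatives were another scaling, no filter, DESeq2 1.42.0, 2 groups alone, the one-strand column, a term for the range of sample numbers, no 30 µg/kg group, and each library left out. Leaving out vehicle replicates 1 and 2, libraries with adrenal sums over 20 CPM or those with adipocyte sums over 200 CPM was chosen after seeing the data.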

Additional observations from a re-analysis of the deposited data

Results flagged for a closer look

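In 15 of the 272 sets of 5 libraries (34 genes in 8 groups), 1 library lay so far from the other 4 that its gap to the nearest exceeded 0.71 of the whole range, Dixon's 95% limit. Chance alone gives this in about 1 set in 20, or 13.6 of 272, and no library stood out for more than 2 genes.

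Replicate 3 at 0.3 µg/kg was high for Kdr (79.9 CPM, next 62.6) and Ehd3 (44.2 CPM, next 32.9). At 0.1 µg/kg, replicate 3 was high for Pecam1 (71.8 CPM, next 56.5) and Igfbp5 (852.5 CPM, next 725.5), and replicate 1 for Egfl7 (35.8 CPM, next 26.5). Replicate 2 at 1 µg/kg was high for S1pr1 (17.6 CPM, next 10.3), and replicate 4 at 3 µg/kg for Sox18 (24.2 CPM, next 16.9).

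At 10 µg/kg, replicate 1 was low for Robo4 (27.2 CPM, next 37.6) and Sox18 (14.9 CPM, next 19.7), and replicate 4 was low for Ehd3 (31.6 CPM, next 39.4). At the same dose replicate 2 was high for Igfbp3 (303.1 CPM, next 217.4) and replicate 3 for Gja5 (7.99 CPM, next 5.01). At 30 µg/kg, replicate 1 was low for Ehd3 (26.8 CPM, next 33.8). In vehicle, replicate 3 was high for Ecscr (5.745 CPM, next 3.62) and replicate 4 for Lyve1 (1.45 CPM, next 0.691).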

How the results depend on the processing

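No paired analysis was possible because the labels give no replicate numbers, so no replicate block could be fitted. Of the single genes followed under the alternatives, at 30 µg/kg alone, none reversed a called direction. Over the 34 endothelial genes, those called higher at 3 µg/kg numbered 2 with 2 groups alone, 3 with the one-strand column and 1 without vehicle replicates 1 and 2, against 5. Those called lower were 0 without these vehicle libraries at 3 µg/kg, against 1. At 10 µg/kg the genes called lower were 1 with library-size scaling, with no filter and without these vehicle libraries, and at 30 µg/kg 1 with 2 groups alone and with library-size scaling, against 2 each. For the other endothelial lists, the count at 1 µg/kg was 0 with 2 groups alone, the one-strand column, without the adrenal libraries or without vehicle replicates 1 and 2, against 1. At 3 µg/kg the genes called higher numbered 1 with the one-strand column and 2 without vehicle replicates 1 and 2, against 5. At 30 µg/kg those called higher were 18 without the fat-rich libraries, against 33, and those called lower 0 with 2 groups alone or library-size scaling, and 1 with no filter, without the fat-rich or without the adrenal libraries, against 2. Along the dose rank those called lower were 6 without vehicle replicates 1 and 2, against 3.

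Over all genes, DESeq2 called 7 at 0.03 and 3 at 0.3 µg/kg. At 1 µg/kg 56 were called with the one-strand column and also without vehicle replicates 1 and 2. At 3 µg/kg 114 were called with 2 groups alone, 120 with the one-strand column and 108 without those vehicle libraries, and at 10 µg/kg 524 without them. At 30 µg/kg 961 were called with 2 groups alone and 1129 without the fat-rich libraries, which has fewer samples. The trend gave 1855 without the fat-rich libraries and 1409 without the 30 µg/kg group. Library-size scaling moved the split of all genes called higher and lower from 663 and 173 to 723 and 95 at 10 µg/kg, from 1456 and 1310 to 1774 and 943 at 30 µg/kg, and from 1906 and 1533 to 2373 and 959 along the dose rank. The cause of these differences was not tested. The fits to 2 groups alone and those that leave out libraries or a group also hold fewer samples.

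Leaving out 1 library at a time, the 34 genes gave 3 to 7 higher at 3 µg/kg, 12 to 16 at 10 and 14 to 16 at 30 µg/kg, 1 to 2 lower at 10 and at 30 µg/kg, and 0 to 1 called at 1 µg/kg. At 3 µg/kg the count of 3 came without replicate 3, 4 or 5 of that dose or vehicle replicate 1 or 2. The other lists gave 0 to 1 at 1 µg/kg, 1 to 7 higher at 3 µg/kg and 0 to 3 lower at 30 µg/kg. All genes called ran from 0 to 1 at 0.03 µg/kg and from 120 (without replicate 5 of the dose) to 199 at 3 µg/kg. The scarcest gene, Lyve1, averaged 0.711 CPM in vehicle, where counting error limits what can be resolved.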
